A study of Rattus norvegicus with 20 samples.

Results

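The liver makes most of the complement and coagulation proteins of blood plasma, and their messenger RNAs are among the abundant transcripts of hepatocytes. The genes described here are 37 such factors and inhibitors, taken by gene symbol and listed with earlier results of these data known. Each was represented by the probe set of its symbol with the highest mean over all arrays, and 31 of the 37 had a tested probe set that carries that symbol alone. C2 and Cfb, the paired serine proteases of the complement convertases, share 4 probe sets that list both genes. Kng1, the kininogen of the contact system, shares 1 probe set with Kng2 and Kng2l1. F7, F11 and F13b had no tested probe set, so these 6 genes are not analysed here.

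The livers came from male Sprague-Dawley rats obtained at 4 weeks of age, which spent 5 days on a standard diet and 21 days on an experimental one, with 4 such diets. There were 5 arrays per diet, each of 1 rat, and the rats were those with an average food intake out of 7 per diet, or 8 for the 1:1 high-isoflavone diet. In the conventional soybean diet, casein and the cultivar Fukuyutaka each supplied an equal part of the protein. In the 3:1 high-isoflavone diet, casein and the isoflavone-rich cultivar Yukipirika supplied 3 parts and 1 part, and in the 1:1 high-isoflavone diet they supplied equal parts. The control diet held casein, the main milk protein, at 200 g/kg, and casein was in all 4 diets. Isoflavones are plant compounds that bind estrogen receptors, and the series asks what soybeans and their isoflavone content do to liver messenger RNAs. The design has no diet with isoflavones and no soybean protein, so the compounds and the rest of the bean cannot be told apart.

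Complement is a cascade of plasma proteases that tags and lyses microbes. It is started by antibody (C1s), by sugar-binding lectins (Mbl1, Mbl2) or by the alternative route (Cfd, Cfb), all of which meet at C3, and it ends in the membrane attack pore of C5 to C9. Coagulation is a second protease cascade that ends in thrombin (F2) and fibrin, is checked by antithrombin (Serpinc1) and protein C (Proc), and is undone by plasmin (Plg). Several clotting proteases, and proteins C and S, work only after their glutamates are carboxylated in a reaction that consumes vitamin K, which the liver recycles with Vkorc1.

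Most of these 31 genes lay close to casein: the difference was under 0.25 in size for 24 of them with conventional soybean, 27 with the 3:1 diet and 25 with the 1:1 diet. The share of all probe sets under that size was not counted, and the members had a smaller SD within diets (median 0.147 against 0.238). Each value below is a log2 signal, so a difference of 1 is 2-fold, with 5 rats per diet, and a gene was called when its limma p, adjusted over all 27702 tested probe sets, was under 0.05. Where 3 differences from casein stand in a row, they are those of conventional soybean, the 3:1 and the 1:1 high-isoflavone diet. On the 1:1 high-isoflavone diet 1 of 31 genes was called against casein, Cfd, which encodes complement factor D and was lower, where 2.21% of all tested probe sets were called (1.07% lower). On the conventional soybean diet 0 of 31 were called against casein, where 1.64% of all were, and on the 3:1 high-isoflavone diet 0 of 31, where 0.0397% of all were. An unadjusted limma p under 0.05 was found for 8 of 31 members with conventional soybean, 8 with the 3:1 diet and 10 with the 1:1 diet. On each diet that was a larger share than the 16.8%, 8.12% and 16.8% of all tested probe sets. A linear model without moderation of the spread called 0 members in all of these comparisons.

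Between the soybean diets, the 1:1 high-isoflavone diet against conventional soybean gave 0 of 31 calls (0.0758% of all probe sets, with 3 members and 7.07% of all at an unadjusted p under 0.05 in limma). The 1:1 against the 3:1 high-isoflavone diet also gave 0 of 31 (0% of all, with 1 member and 7.22% of all at an unadjusted p under 0.05 in limma). A moderated F test over the 4 diets called 0 of 31, where 1.35% of all probe sets were called, and the lowest adjusted p in limma was 0.123, for Cfd. The unmoderated linear model called 0 members in these tests too.

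The promoters of 4 genes described in the results are shown, and no result rests on them. Cfd was the one member called, F9 had the highest difference from casein on each soybean diet, C6 varied most between rats, and Vkorc1 recycles the vitamin K used in making active F9. Each runs from 250 bases before to 50 bases after the gene's start, 5′ to 3′ on the gene's strand, from RefSeq on build GRCr8 of the rat genome. The Cfd window lies at chr7:10465447-10465746 (minus strand), F9 at chrX:143388392-143388691 (plus), C6 at chr2:55573383-55573682 (plus) and Vkorc1 at chr1:191935441-191935740 (minus). Capitals mark matches to the core bound by C/EBP factors, liver activators of plasma protein genes.
Cfd: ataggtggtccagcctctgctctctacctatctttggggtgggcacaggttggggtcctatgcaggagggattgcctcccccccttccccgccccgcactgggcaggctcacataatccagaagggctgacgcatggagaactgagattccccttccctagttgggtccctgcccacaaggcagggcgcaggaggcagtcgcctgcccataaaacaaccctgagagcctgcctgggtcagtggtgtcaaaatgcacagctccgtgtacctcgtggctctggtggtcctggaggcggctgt
F9: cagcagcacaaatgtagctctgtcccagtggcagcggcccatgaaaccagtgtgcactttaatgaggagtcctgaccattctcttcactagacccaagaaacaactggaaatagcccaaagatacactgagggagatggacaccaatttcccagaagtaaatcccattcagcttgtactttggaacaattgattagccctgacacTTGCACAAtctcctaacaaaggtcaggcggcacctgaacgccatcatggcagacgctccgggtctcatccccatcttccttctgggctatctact
C6: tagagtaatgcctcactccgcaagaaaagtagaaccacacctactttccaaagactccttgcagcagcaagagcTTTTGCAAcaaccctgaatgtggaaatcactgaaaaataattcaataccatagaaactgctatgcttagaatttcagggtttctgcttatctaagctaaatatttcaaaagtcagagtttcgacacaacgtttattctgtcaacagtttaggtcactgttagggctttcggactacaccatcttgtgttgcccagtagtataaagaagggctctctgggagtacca
Vkorc1: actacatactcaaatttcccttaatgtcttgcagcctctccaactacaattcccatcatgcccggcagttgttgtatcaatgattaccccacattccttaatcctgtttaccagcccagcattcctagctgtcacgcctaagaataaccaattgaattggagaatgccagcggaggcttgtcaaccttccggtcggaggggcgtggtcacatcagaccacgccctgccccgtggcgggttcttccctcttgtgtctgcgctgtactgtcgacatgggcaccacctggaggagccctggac
The C/EBP core searched was TTGCNNAA on both strands, and it stood at bases -45 to -38 from the start of F9 and at -176 to -169 from the start of C6. Of the 24 members with a promoter in the RefSeq table, 8 held it (C3, C4bpa, C6, C8a, C8b, F9, Klkb1 and Serpinc1), as did 10.6% of all 33469 promoters. A core of the HNF1 site, bound by a liver activator and searched as GTTAAT on both strands, was in 7 of the 24 (C4bpa, C4bpb, C5, C8a, F2, Plg and Proc) and in 7.45% of all promoters. The palindrome bound by estrogen receptors, GGTCA and TGACC with any 3 bases between them, was in 0 of the 24 and in 0.0269% of all promoters. A site of the HNF4 type, searched as CAAAGTCCA on both strands, was in 0 of the 24 and in 0.391% of all. These matches describe letters in the window only. They do not overlap in the 4 promoters shown, where the C/EBP core was the one motif found.

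Cfd, or adipsin, is the serine protease that cuts factor B on the alternative route and is known as a product of fat tissue. On the 1:1 high-isoflavone diet its level was 2.57, 2.76, 2.40, 2.37 and 2.99. On conventional soybean it was 2.87, 3.19, 3.25, 3.03 and 2.95, and on the 3:1 high-isoflavone diet 3.32, 3.06, 3.22, 2.87 and 2.77. The casein rats had 3.58, 3.06, 3.70, 2.94 and 3.01. Thus 4 of 5 rats on the 1:1 diet lay below every casein rat, the fifth lay just above the lowest casein rat, and 2 casein rats stood well above the other 3. Cfd fell by 0.64 on the 1:1 high-isoflavone diet against casein (SE 0.157, 95% interval -0.97 to -0.31, adjusted p = 0.0334 in limma), a fold of 0.642. Against casein the difference was -0.20 on conventional soybean (adjusted p = 0.538) and -0.21 on the 3:1 diet (adjusted p = 0.801 in limma). The 1:1 diet differed from conventional soybean by -0.44 (adjusted p = 0.534) and from the 3:1 diet by -0.43 (adjusted p = 0.600 in limma), so a difference between soybean diets was not shown.

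The Cfd call was lost in 6 of the 20 fits that left out 1 rat. Without casein rat 1 the difference was -0.56 (adjusted p = 0.0836 in limma) and without casein rat 3 it was -0.53 (adjusted p = 0.0809). Leaving out rat 1, 2, 3 or 4 of the 1:1 diet also ended the call, with adjusted p between 0.0561 and 0.0924 in limma. The differences were then -0.63, -0.68, -0.59 and -0.58, against -0.64 with all rats. Fitted to the 1:1 and casein arrays alone, limma gave Cfd an adjusted p of 0.0863, which also ends the call. The signal of Cfd was dim, since the median probe set of an array read 2.43 to 2.57.
Markers of macrophages, the Kupffer cells of liver, were also lower on the 1:1 diet. Of the 10 in the list 8 were measured, and all 8 were lower there than on casein. Limma called 0 of them, against 2.21% of all tested probe sets. An unadjusted limma p under 0.05 was found for 5 of the 8, against 16.8% of all. The summed level of the 8 was 7.61 to 7.90 on the 1:1 diet (median 7.81), against 7.76 to 8.41 on casein (median 8.12). It was 7.77 to 8.55 on conventional soybean (median 7.77) and 7.91 to 8.12 on the 3:1 diet (median 8.04). All 8 markers were also lower on the 1:1 diet than on conventional soybean and than on the 3:1 diet, with 0 called. Of 4 neutrophil and 4 red blood cell markers 2 each were measured, all lower on the 1:1 diet than on casein, with 0 called. In each of these lists 1 of the 2 had an unadjusted limma p under 0.05. All 4 platelet markers and 4 of 6 endothelium markers were higher on the 1:1 diet than on casein. Of these platelet and endothelium lists 0 were called and 0 had an unadjusted limma p under 0.05. Of 5 adipocyte markers only Plin1 and Lpl were measured, with a summed level of 2.84 to 3.43 on the 1:1 diet and 2.65 to 3.16 on casein. Adipoq, Lep and Fabp4, which define fat cells, had no tested probe set. The part of these cells in the Cfd result was not tested, and in whole liver fewer cells of a type and less RNA per cell cannot be told apart.

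**Figure D1:**
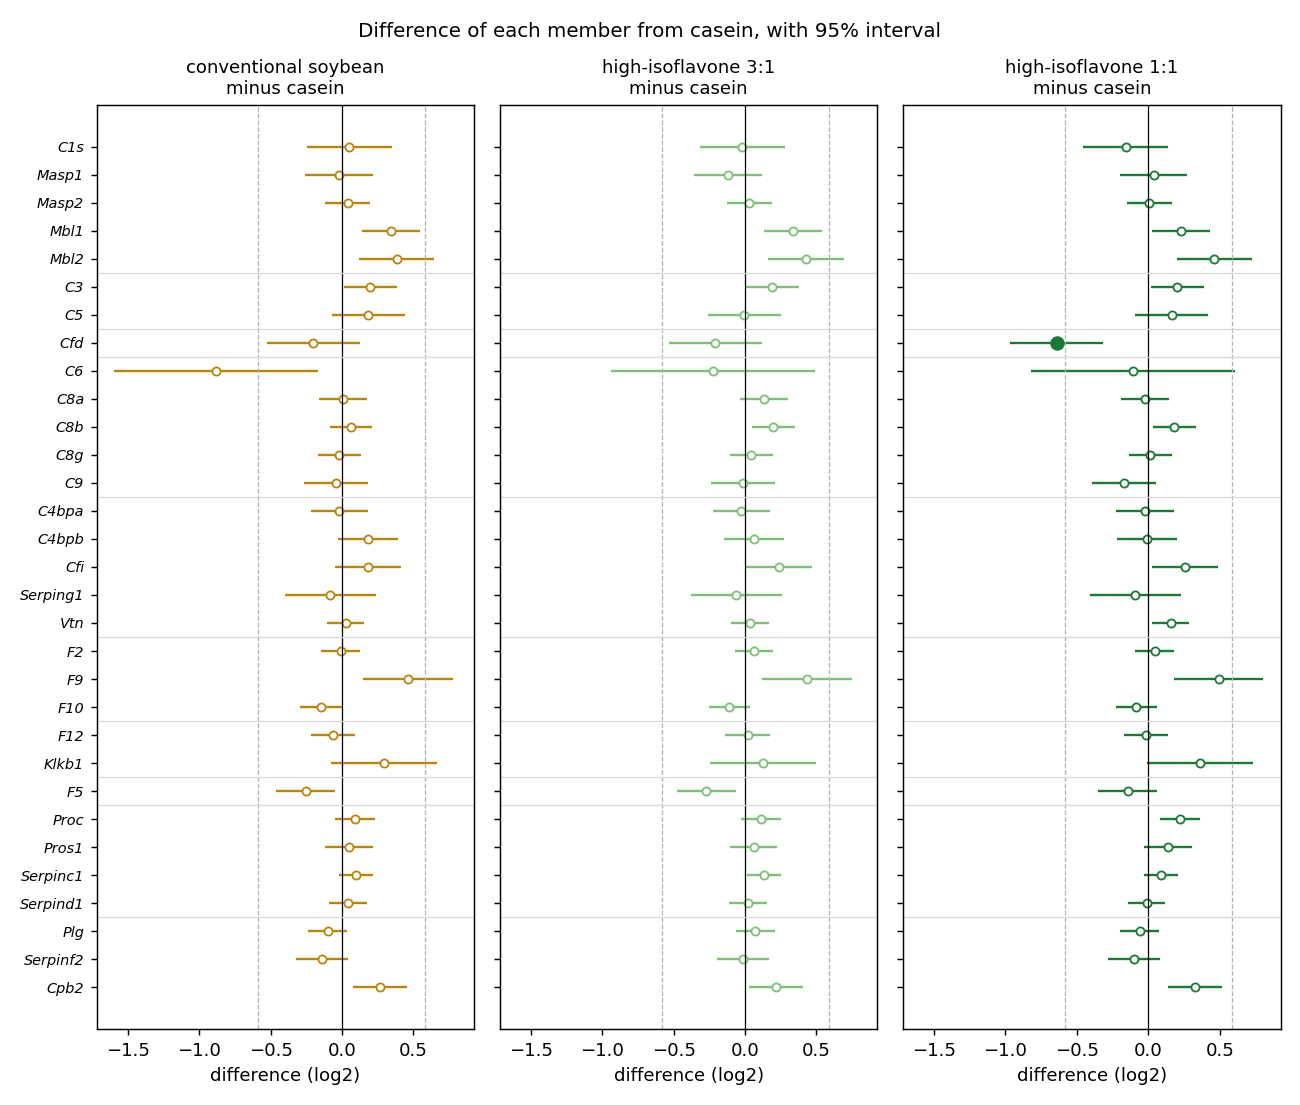
Difference of each of the 31 genes from casein in 3 panels, for conventional soybean, 3:1 and 1:1 high-isoflavone diets (log2, horizontal axis), with the 95% interval from limma as a bar. Most intervals lie close to 0. Cfd on the 1:1 diet, at -0.64, is the one called difference, and F9 and Mbl2 are the 2 genes furthest to the right in each panel.

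Mbl2 came next to F9 in its difference from casein on each soybean diet. Mbl1 and Mbl2 encode the mannose-binding lectins, which coat microbial sugars and activate the proteases Masp1 and Masp2. Mbl2 was at 7.07, 7.28, 7.74, 7.42 and 7.11 on conventional soybean, at 7.18, 7.61, 7.18, 7.36 and 7.52 on the 3:1 diet and at 7.24, 7.27, 7.50, 7.77 and 7.25 on the 1:1 diet. It was at 7.10, 6.89, 6.86, 6.79 and 7.09 in casein rats. All 10 rats on the high-isoflavone diets lay above all 5 casein rats, and 4 of 5 did on conventional soybean. The differences were 0.38 (SE 0.128, adjusted p = 0.127), 0.43 (adjusted p = 0.292) and 0.46 (adjusted p = 0.0601 in limma) in the order of diets just given, so none was called. After centring and scaling the Mbl2 difference on the 1:1 diet was 0.30 (adjusted p = 0.318 in limma). A dimmer probe set of Mbl2 gave 0.28, 0.20 and 0.20, with no call.

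Mbl1, picked after its values were seen, had 6.54, 6.50, 6.84, 6.96 and 6.68 on conventional soybean, 6.51, 6.63, 6.65, 6.92 and 6.77 on the 3:1 diet and 6.72, 6.38, 6.58, 6.67 and 6.58 on the 1:1 diet. The casein rats had 6.54, 6.28, 6.33, 6.28 and 6.36, with rat 1 above the other 4. Its differences from casein were 0.34 (SE 0.0974, adjusted p = 0.0726), 0.33 (adjusted p = 0.265) and 0.23 (adjusted p = 0.237 in limma). Without rat 1 of each diet, a choice made after seeing the data, Mbl1 was called on conventional soybean at 0.43 (adjusted p = 0.0488 in limma). Masp1 and Masp2 differed from casein by -0.12 to 0.04 over the 3 diets. Their dimmer probe sets gave -0.01 to 0.19 for Masp1 and -0.09 to 0.11 for Masp2, with no call. C1s, the protease of the antibody-started route, differed by 0.05, -0.02 and -0.16, and by -0.21 between the 1:1 diet and conventional soybean (adjusted p = 0.814 in limma).

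Of the central components, C3, on which all routes meet, had a median of 10.09 on conventional soybean, 10.03 on the 3:1 diet, 10.07 on the 1:1 diet and 9.86 on casein. Its differences from casein were 0.20, 0.19 and 0.20 (SE 0.0902, adjusted p = 0.266, 0.617 and 0.256 in limma), with 3, 2 and 4 of 5 rats above every casein rat. After each array was centred and scaled the C3 difference on the 1:1 diet was -0.02, so its sign depends on the scaling. C5, which starts the membrane attack pore, differed from casein by 0.19, -0.01 and 0.16, and by 0.17 between the 1:1 and the 3:1 diet (adjusted p = 0.801 in limma).

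The terminal components held the most variable member. C6, a subunit of the membrane attack pore, was at 4.89, 6.13, 5.06, 4.58 and 4.94 on conventional soybean. It was at 5.71, 6.05, 6.69, 5.00 and 5.46 on the 3:1 diet, at 5.20, 6.10, 5.75, 6.35 and 6.07 on the 1:1 diet and at 6.38, 5.76, 7.14, 5.29 and 5.44 on casein. Casein rats alone ranged over 5.29 to 7.14, and 4 of 5 rats on conventional soybean, all but rat 2, lay below all of them. The conventional soybean difference from casein was -0.88 (SE 0.344, 95% interval -1.60 to -0.17), the most negative of any member, with an adjusted p of 0.193 in limma. The 1:1 diet differed from conventional soybean by 0.77 (adjusted p = 0.668 in limma). On the 3:1 diet the C6 difference from casein was -0.22, and it was 0.06 without casein rat 3.

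C8b, the beta chain of the eighth component, had differences of 0.06, 0.20 and 0.18 from casein (SE 0.0719, adjusted p = 0.687, 0.450 and 0.196 in limma). C8a differed by -0.16 between the 1:1 and the 3:1 diet (adjusted p = 0.715 in limma). C9, which polymerises into the pore, differed from casein by -0.17 on the 1:1 diet (adjusted p = 0.456 in limma). C8g, the gamma chain, differed by -0.02, 0.04 and 0.01.

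The complement inhibitors gave 0 calls among 5 members. Vtn, vitronectin, which blocks pore insertion, lay at 9.61, 9.66, 9.58, 9.65 and 9.46 on the 1:1 diet, against 9.38, 9.45, 9.47, 9.33 and 9.53 on casein. All rats of the 1:1 diet but rat 5 were above all casein rats, and the difference was 0.16 (SE 0.0627, adjusted p = 0.196 in limma), or -0.06 after centring and scaling. The 1:1 diet differed from conventional soybean by 0.13 for Vtn (adjusted p = 0.704 in limma). Cfi, the protease that inactivates C3b, had differences of 0.19, 0.24 and 0.25 from casein, none of them called. Serping1, the inhibitor of C1s and of kallikrein, differed by -0.09 on the 1:1 diet (adjusted p = 0.829) but spread widely on conventional soybean, over 7.66 to 8.70. C4bpa and C4bpb, the chains of the C4b-binding protein, differed from casein by -0.03 to 0.18.

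**Figure D2:**
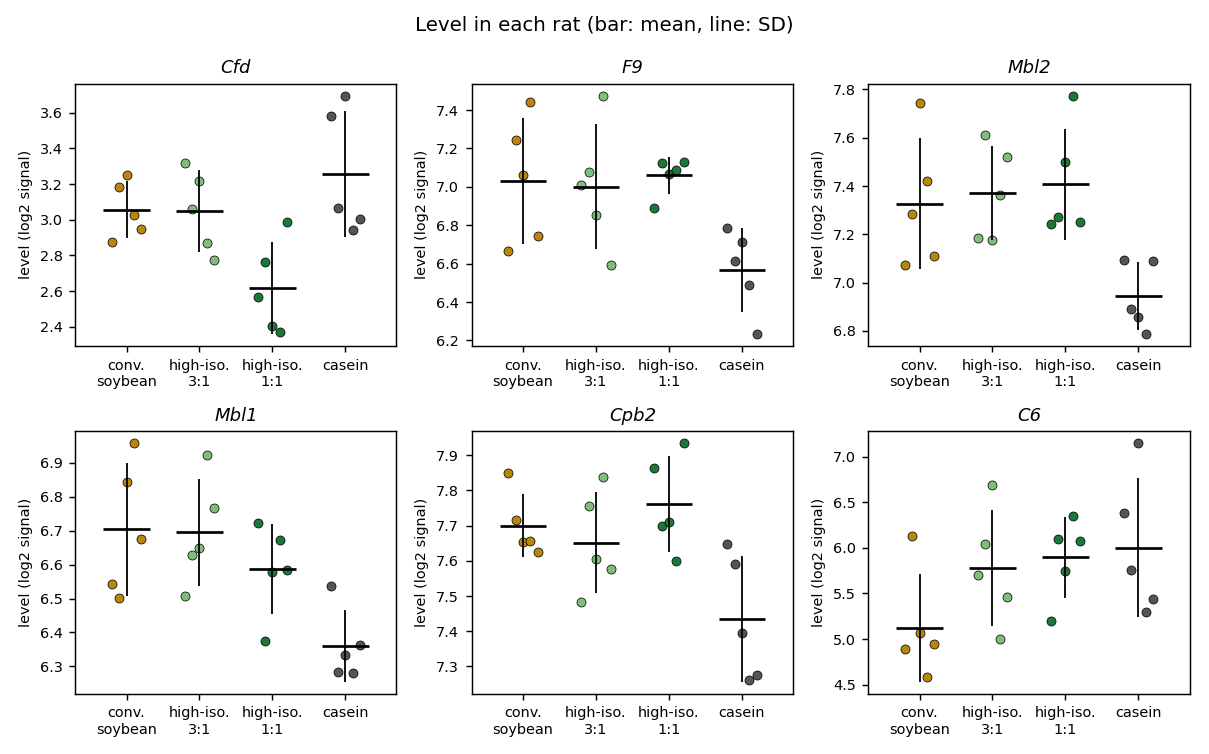
Level of members in each rat (log2 signal, vertical axis, own scale per panel) on conventional soybean, the 3:1 and 1:1 high-isoflavone diets and casein, with points for rats, a bar for the mean and a vertical line for the SD. Mbl2 and F9 lie higher in most soybean rats than in casein rats, Cfd is lowest on the 1:1 diet, and C6 spreads over 4.58 to 7.14.

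Among the vitamin K-dependent procoagulants, F9, the protease missing in haemophilia B, had the highest difference from casein on each soybean diet. It was at 6.67, 7.24, 7.06, 7.44 and 6.74 on conventional soybean, at 7.01, 7.08, 6.85, 7.48 and 6.59 on the 3:1 diet and at 6.89, 7.12, 7.06, 7.09 and 7.13 on the 1:1 diet. It was at 6.79, 6.61, 6.71, 6.49 and 6.23 in casein rats. The 5 rats of the 1:1 diet all lay above the casein rats, within a narrow range, while conventional soybean and the 3:1 diet spread widely and overlapped with casein. The differences were 0.46 (adjusted p = 0.118), 0.43 (adjusted p = 0.424) and 0.49 (SE 0.151, 95% interval 0.18 to 0.81, adjusted p = 0.0927 in limma), the last a fold of 1.41. None was called, except that the 1:1 difference had an adjusted p of 0.0331 when limma was fitted to the 1:1 and casein arrays alone, the fit in which Cfd was not called.
The other procoagulants were closer to casein. F2, prothrombin, differed from casein by -0.01, 0.06 and 0.04 over the 3 diets. F10, factor X, differed by -0.15, -0.11 and -0.08 (SE 0.0698, adjusted p = 0.293, 0.748 and 0.597 in limma).

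F5, the cofactor of factor X, was at 5.82, 5.72, 6.02, 5.32 and 5.67 on conventional soybean, at 5.70, 5.53, 5.58, 5.80 and 5.84 on the 3:1 diet and at 5.76, 5.97, 5.70, 5.82 and 5.84 on the 1:1 diet. Casein rats had 5.999, 6.03, 5.92, 5.96 and 5.90. All rats of the 3:1 diet lay below all casein rats, as did 4 of 5 on each of the other soybean diets. The differences were -0.25 (adjusted p = 0.197), -0.27 (SE 0.0999, adjusted p = 0.463) and -0.14 (adjusted p = 0.504 in limma). In the contact system, Klkb1, plasma prekallikrein, differed by 0.30, 0.13 and 0.36 (SE 0.179, adjusted p = 0.412, 0.925 and 0.321 in limma), and by 0.23 between the 1:1 and the 3:1 diet. F12, which activates prekallikrein, differed from casein by -0.07 to 0.02.

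The anticoagulants gave 0 calls among 4 members. Proc, protein C, which is cut by thrombin to inactivate F5 and F8, was at 7.93, 8.09, 8.03, 8.11 and 8.07 on the 1:1 diet, against 7.84, 7.92, 7.81, 7.72 and 7.84 on casein. The groups did not overlap, and the difference was 0.22 (SE 0.0676, adjusted p = 0.0936 in limma), or 0.04 after centring and scaling (adjusted p = 0.865). It was 0.09 on conventional soybean and 0.11 on the 3:1 diet. Serpinc1, antithrombin, shown after its values were seen as the member with the lowest SD, lay at 9.66, 9.67, 9.64, 9.68 and 9.80 on the 3:1 diet, against 9.59, 9.51, 9.57, 9.53 and 9.59 on casein. The groups did not overlap, and the difference was 0.13 (adjusted p = 0.570 in limma). Pros1, the cofactor of protein C, differed from casein by 0.05 to 0.14, and Serpind1, heparin cofactor II, by -0.01 to 0.04.

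In fibrinolysis, Cpb2, the carboxypeptidase that protects fibrin from plasmin, was at 7.85, 7.72, 7.65, 7.66 and 7.63 on conventional soybean, at 7.48, 7.76, 7.61, 7.84 and 7.58 on the 3:1 diet and at 7.86, 7.70, 7.71, 7.60 and 7.93 on the 1:1 diet. Casein rats had 7.65, 7.59, 7.40, 7.26 and 7.27. Casein rats 3, 4 and 5 lay below every soybean rat, rat 2 overlapped with the 3:1 diet alone and rat 1 with all 3 soybean diets. The differences were 0.27 (adjusted p = 0.135), 0.22 (adjusted p = 0.539) and 0.33 (SE 0.0903, adjusted p = 0.0612 in limma). Without casein rat 1, Cpb2 on the 1:1 diet was called (difference 0.38, adjusted p = 0.0368 in limma), and after centring and scaling the difference was 0.16 (adjusted p = 0.572). Plg, plasminogen, differed from casein by -0.10, 0.07 and -0.06, and Serpinf2, the plasmin inhibitor, by -0.14, -0.01 and -0.10.

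Read across all 31 genes, 18 lay above casein with conventional soybean, 20 with the 3:1 diet and 17 with the 1:1 diet, but 8, 10 and 10 did after centring and scaling of each array, so no direction of the group as a whole is given. The median difference was 0.040, 0.043 and 0.015, where all tested probe sets had 0.0588, 0.0103 and 0.0373. Above casein on all 3 diets were 13 members, and below on all 3 were 8, while 35.2% and 22.7% of all tested probe sets were so. The 3 comparisons share the casein rats. Members whose rats did not overlap with casein numbered 0 on conventional soybean, where 4.62% of all probe sets were so. They numbered 3 on the 3:1 diet, namely Mbl2 and Serpinc1 higher and F5 lower (1.81% of all), and 3 on the 1:1 diet, namely F9, Proc and Mbl2, all higher (4.45% of all, 2.38% higher). The 1:1 diet overlapped with conventional soybean and with the 3:1 diet for all 31 members, where 1.4% and 1.14% of all probe sets did not overlap.

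The SD within diets had a median of 0.147 over the 31 members, against 0.238 over all tested probe sets. It was lowest for Serpinc1 at 0.0727 and highest for C6 at 0.618. Most members are brighter than the median probe set of an array, at 2.43 to 2.57, and the part of brightness in their SD was not tested. On conventional soybean the 95% interval of the difference from casein stayed within 1.5-fold both ways for 27 of 31 members, on the 3:1 diet for 28 and on the 1:1 diet for 26. The members outside it on the 1:1 diet were C6, Cfd, F9, Klkb1 and Mbl2. Between the 1:1 diet and conventional soybean 29 of 31 intervals stayed within 1.5-fold, all but C6 and Cfd, and between the 1:1 and 3:1 diets 28 did.

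**Figure D3:**
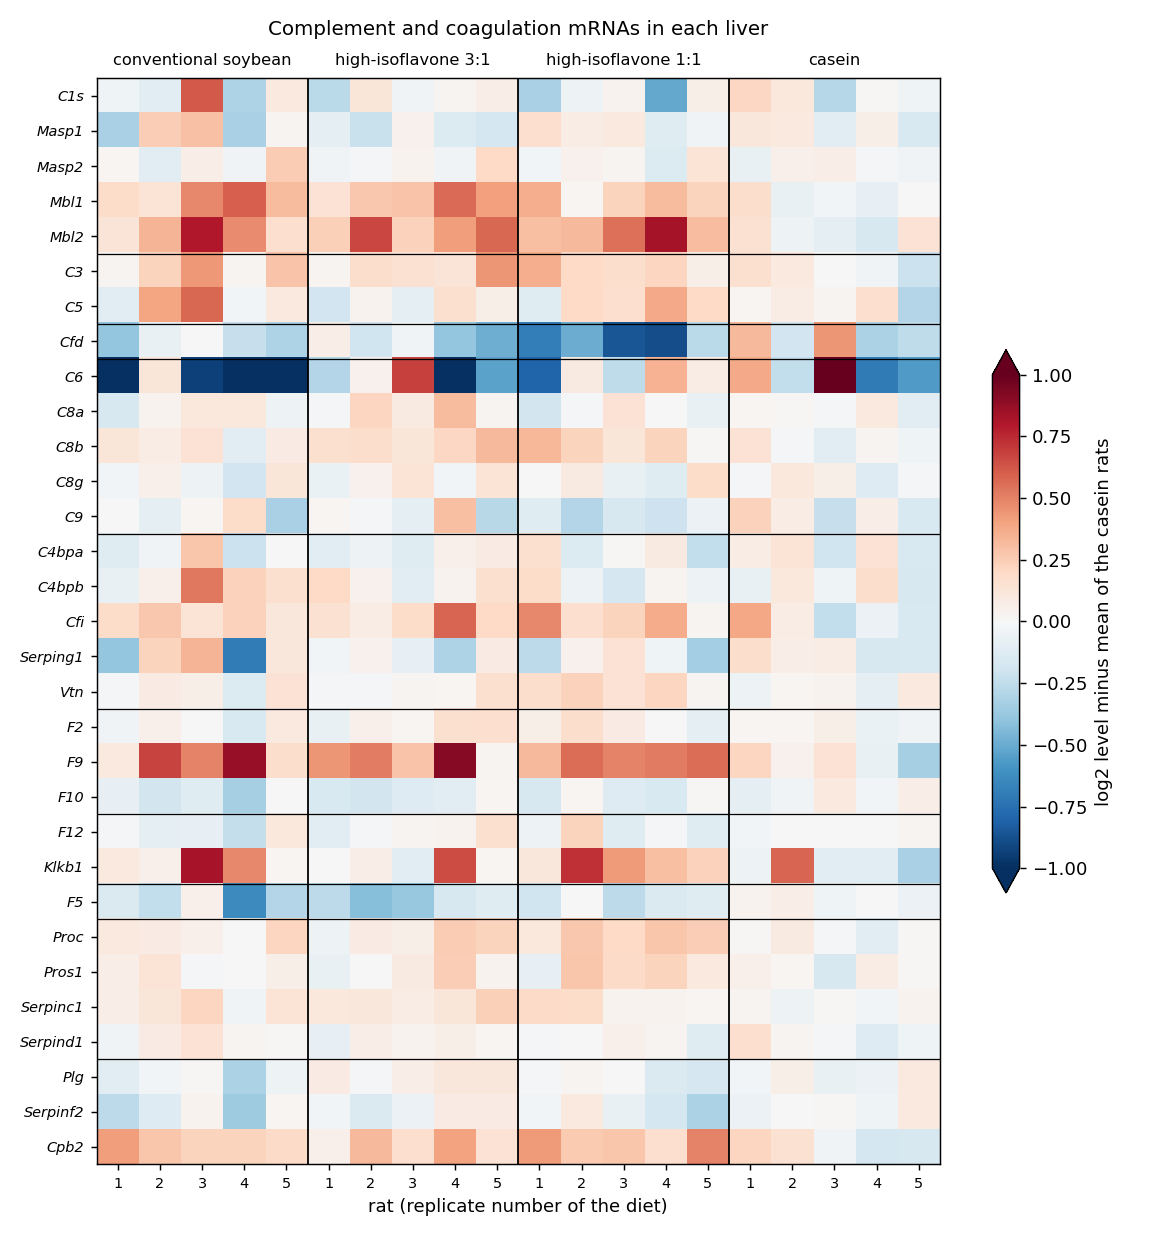
Level of each of the 31 genes (rows, ordered by role) in each of the 20 livers (columns, by diet) as the log2 difference from the gene's mean in casein rats. Colours end at -1 and 1, which C6 passes in several rats. Cfd is lowest in rats of the 1:1 diet, F9 and Mbl2 are above 0 in most soybean rats, and conventional soybean rats 3 and 4 stand high and low over many genes.

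Single rats moved many members at once. Conventional soybean rat 4 was the lowest of its diet for 15 of 31 members, where it was the lowest for 27.1% of all probe sets. Rat 3 of that diet was the highest for 16 of 31, where it was the highest for 18.2% of all. On the 3:1 diet rat 1 was the lowest for 14 members (16.4% of all) and rat 5 the highest for 13 (21.7% of all). Casein rat 1 was the highest of its diet for 12 members (19.2% of all), among them Cpb2, F9, Mbl1 and Mbl2.

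Genes around the cascade were looked at through lists drawn up with results of these data known. Of 42 further complement and coagulation genes 32 were measured, and on the 1:1 diet 1 was called higher and 0 lower against casein. On conventional soybean and the 3:1 diet limma called 0 of the 32. Of all tested probe sets 1.64%, 0.0397% and 2.21% were called on conventional soybean, the 3:1 and the 1:1 diet. At an unadjusted limma p under 0.05 were 6, 4 and 8 of the 32, against 16.8%, 8.12% and 16.8% of all probe sets. Serpina10, named after its values were seen, did not overlap with casein on conventional soybean and the 1:1 diet, and was higher. Of all probe sets 4.62% and 4.45% did not overlap there. The called gene was Clu, clusterin, a chaperone that also blocks the membrane attack pore. Its level was 8.41, 8.04, 8.30, 7.88 and 8.44 on conventional soybean, 8.34, 7.99, 7.98, 8.47 and 8.21 on the 3:1 diet and 8.48, 8.45, 8.30, 8.37 and 8.05 on the 1:1 diet. In casein rats it was 7.85, 7.99, 7.88, 7.94 and 7.82, below all 5 rats of the 1:1 diet. Clu rose by 0.43 on the 1:1 diet against casein (SE 0.113, adjusted p = 0.0459 in limma), 1.35-fold. It differed by 0.32 on conventional soybean (adjusted p = 0.152) and by 0.30 on the 3:1 diet (adjusted p = 0.468 in limma). The Clu call was near the threshold and was lost in 18 of 29 alternative settings, with adjusted p up to 0.361, where the difference was 0.26 after centring and scaling. A dimmer probe set of Clu differed by 0.47, -0.04 and 0.33 over the 3 diets, with no call.

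Of 5 measured genes of the vitamin K cycle, limma called 1 on each diet with equal parts of soybean and casein, and 0 on the 3:1 diet. Of all tested probe sets 1.64% were called on conventional soybean, 0.0397% on the 3:1 diet and 2.21% on the 1:1 diet. Vkorc1, the epoxide reductase that regenerates vitamin K and is the target of warfarin, was at 7.59, 7.76, 7.55, 7.50 and 7.80 on conventional soybean. It was at 7.88, 8.03, 8.00, 7.51 and 8.06 on the 3:1 diet, at 7.68, 7.63, 7.66, 7.43 and 7.91 on the 1:1 diet and at 8.04, 8.18, 8.19, 8.12 and 8.14 on casein. Every rat on conventional soybean and on the 1:1 diet lay below every casein rat, as did 4 of 5 on the 3:1 diet. Of all probe sets 4.62% did not overlap with casein on conventional soybean, and 4.45% on the 1:1 diet. Vkorc1 fell by 0.49 on conventional soybean (SE 0.0986, adjusted p = 0.0160), a fold of 0.710, and fell by 0.47 on the 1:1 high-isoflavone diet (adjusted p = 0.0135 in limma), a fold of 0.721. On the 3:1 diet the difference was -0.24 (adjusted p = 0.538), and the 1:1 diet differed from the 3:1 diet by -0.23 (adjusted p = 0.655) and from conventional soybean by 0.02 (adjusted p = 0.983, 95% interval -0.18 to 0.23 in limma). In 29 alternative settings the 1:1 call was kept in all, and the conventional soybean call was lost in 1, without the 2 arrays whose lowest values were higher than those of the rest (adjusted p = 0.0530 in limma).

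Of the other 4 measured genes of that cycle, given after their values were seen, 0 were called by limma. Ggcx, the carboxylase that uses vitamin K on F2, F9, F10, Proc and Pros1, was at 4.39, 4.30, 4.01, 4.18 and 4.39 on conventional soybean and at 4.86, 4.67, 4.47, 4.53 and 4.65 on the 1:1 diet. It was at 4.39, 4.57, 4.53, 4.90 and 4.70 on casein. Conventional soybean rats lay below casein rats, the highest of them only just, where 4.62% of all probe sets did not overlap. The Ggcx difference was -0.36 (adjusted p = 0.0718 in limma). The 1:1 diet differed from conventional soybean by 0.38 for Ggcx (adjusted p = 0.260 in limma). Vkorc1l1, a second reductase of the cycle, differed from casein by -0.52, -0.23 and -0.46 (adjusted p = 0.116, 0.787 and 0.156 in limma). Nqo1 and Aifm2, quinone reductases, differed by 0.11, -0.55 and -0.14 and by -0.16, -0.01 and 0.25. That Aifm2 probe set averaged 2.01, below the median signal of the arrays. Another, at 1.99, gave 0.23, 0.08 and 0.26, with no call. Fsp1, another name of Aifm2, had no tested probe set of that symbol.

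**Figure D4:**
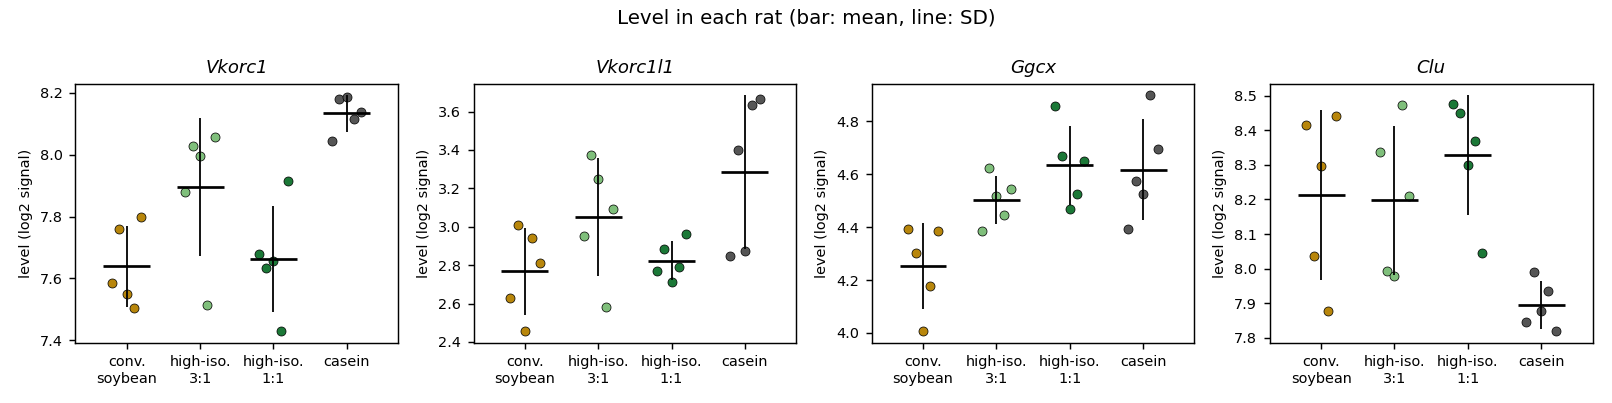
Level of vitamin K cycle genes and clusterin in each rat (log2 signal, vertical axis, own scale per panel) on conventional soybean, the 3:1 and 1:1 high-isoflavone diets and casein, with points for rats, a bar for the mean and a vertical line for the SD. All rats on conventional soybean and on the 1:1 diet lie below the casein rats for Vkorc1, and all rats on the 1:1 diet lie above them for Clu.

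The other lists bear on these genes. Of 16 liver transcription factors 12 were measured, and limma called 0 of them against casein on any soybean diet. At an unadjusted limma p under 0.05 were 1, 0 and 1 of the 12, against 16.8%, 8.12% and 16.8% of all tested probe sets. The share of all that were called was 1.64%, 0.0397% and 2.21%. The counts of transcription factors use the brightest probe set of each gene. Hnf4a and F8 are given here after the values of their dimmer probe sets were seen. For Hnf4a, the receptor that activates many of these genes, the brightest gave -0.04 on the 1:1 diet, but 2 dimmer probe sets were called higher there, at 0.47 (adjusted p = 0.0367) and 0.93 (adjusted p = 0.0347 in limma). For F8, the cofactor of F9, 1 of 3 dimmer probe sets was called lower, at -0.84 on conventional soybean (adjusted p = 0.0330) and -1.03 on the 1:1 diet (adjusted p = 0.00685 in limma), while the brightest gave 0.12 and -0.14. These probe sets averaged 2.39 to 2.46, near the median signal of the arrays. Of 15 acute phase genes, whose proteins rise in plasma with inflammation, 14 were measured and limma called 0 against casein on any soybean diet. At an unadjusted limma p under 0.05 were 4, 3 and 3 of the 14, against the 16.8%, 8.12% and 16.8% of all tested probe sets. The median difference of the 14 was -0.01, 0.03 and 0.02. The list held wider differences, given here after their values were seen. A2m, alpha-2-macroglobulin, differed by 1.60, 0.99 and 1.27 (SE 0.493, adjusted p = 0.0991, 0.635 and 0.186 in limma), with no overlap on conventional soybean. Orm1, orosomucoid, differed by 0.55 on the 1:1 diet, with no overlap (adjusted p = 0.0694 in limma). Of all probe sets 4.62% did not overlap with casein on conventional soybean, and 4.45% on the 1:1 diet.

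Over the series, the liver label was checked on 8 hepatocyte markers, of which 7 were measured, and their summed level was 12.0 to 12.3 on all arrays. That sum rests on the brightest genes. Tat and Apoa1, both among the 7, are named after their values were seen. Tat, a tyrosine-degrading enzyme, fell by 1.20 on conventional soybean (adjusted p = 0.0487) and fell by 1.25 on the 1:1 diet against casein (adjusted p = 0.0331 in limma). Apoa1 was lower in all conventional soybean rats than in any casein rat, where 4.62% of all probe sets did not overlap. The Apoa1 difference was -0.49 (adjusted p = 0.0889 in limma). The part of these in the members' results was not tested. On conventional soybean 453 of 27702 probe sets were called against casein, 62.0% of them higher, but 35.4% were higher after quantile normalization and 25.1% after centring and scaling. On the 1:1 diet 613 were called, 51.7% higher, against 38.6% and 27.6% after those scalings. Median signals per array were 2.51 to 2.56 on conventional soybean, 2.43 to 2.52 on the 3:1 diet, 2.45 to 2.57 on the 1:1 diet and 2.43 to 2.49 on casein. The 2 arrays with a higher lowest value are 3:1 rat 1 and casein rat 5.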

How the data were processed

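Liver RNA of 20 rats was hybridised to Affymetrix rat arrays after 3′ in vitro transcription labelling. The authors deposited 1 table of log10 values for 20 arrays, normalized with the SuperNORM data service per the labels. The base was inferred from the spike-in controls, with a slope of 0.931 log10 units per log10 unit of amount (SD 0.0225 over 20 arrays, 18 probe sets), and the probe summary method is not stated in those labels. Arrays were put in diets by title, and titles were matched to the described diets by wording. Values were multiplied by 3.3219 to log2 without further normalization. Of 31099 probe sets, 57 controls and 3342 without values were left out, 2 being both, leaving 27702. The platform annotation gives 1 symbol for 19157 of these, several for 394 and none for 8151, and the Entrez IDs of all 31 measured members carry the same symbol in RefSeq.

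The test was limma 3.58.1 (R 4.3.3) with diet means fitted on all 20 arrays, eBayes with a trend, two-sided, Benjamini-Hochberg adjusted over the 27702 probe sets, called under 0.05. It gave every adjusted p and SE, except where the sentence names another setting. A summed level is the log2 of the sum of linear signals over a list. The number of arrays limits the precision. Alternatives were another normalization, filter, probe set rule and model, and each rat left out. Steps were tested on simulated data. Members and lists were chosen with earlier results of these data known. The rule for named genes took called members, the member with the smallest F-test p in each role, the 3 with the largest SD within diets, the 2 highest and 2 lowest differences of each comparison, and called genes of the other lists. Genes outside it are marked as seen first, or account for the remaining members. Replicate numbers were not taken to pair the rats: the mean correlation of same-numbered deviations was 0.28 for number 1, with every pair at 0.203 or more, and -0.01, -0.03, 0.07 and 0.03 for numbers 2 to 5, with pairs below 0 in each.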

Additional observations from a re-analysis of the deposited data

Results flagged for a closer look

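Of 72 groups of 5 rats tested for 1 rat far from the others, 4 were marked, where chance marks about 1 in 20, or 3.6 groups. In each, 1 rat's gap to its nearest neighbour was over 0.71 of the range of its diet. F9 in rat 1 of the 1:1 high-isoflavone diet was lowest at 6.89, next to 7.06, with a gap of 0.734 of the range. Vtn in rat 5 of the 3:1 high-isoflavone diet was highest at 9.59, next to 9.46, with a gap of 0.722. Klkb1 in rat 4 of the 3:1 high-isoflavone diet was highest at 6.58, next to 5.997, with a gap of 0.761. C8b in conventional soybean rat 4 was lowest at 7.28, next to 7.46, with a gap of 0.731.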

How the results depend on the processing

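Of 870 recomputed single differences, 836 kept their direction and their side of the threshold and 3 changed sign. The sign changes were C3 (-0.022) and Vtn (-0.057) on the 1:1 high-isoflavone diet against casein after centring and scaling, and C6 on the 3:1 diet against casein, which ran over -0.448 to 0.064 when each rat was left out and was 0.064 without casein rat 3. The count of members called on the 1:1 diet against casein was 0 with the plain linear model and 0 without number 1 of all diets, which was chosen after seeing the data, and 0 to 2 when each rat was left out. It was 2 without conventional soybean rat 3 (Cfd and Mbl2) and 1 without casein rat 1 (Cpb2 in place of Cfd). On conventional soybean it was 1 without number 1 of all diets (Mbl1). Over all 29 alternatives the Cfd difference ran over -0.73 to -0.53, was called in 20 and had adjusted p of 0.0168 to 0.130 in limma. With a replicate block Cfd was -0.64 (adjusted p = 0.0329 in limma) with 1 member called, and the other comparisons had 0. In each of the 20 arrays the deviation was set against those of the other diets, and 7 correlated best with their own number. The count that unrelated numbers would give was not computed, so the 7 do not decide whether same-numbered rats share anything. Under all alternatives the median difference of the members ran over -0.16 to 0.07, the lowest after centring and scaling. Centring and scaling also moved the differences from casein of C9 (-0.36) and Serping1 (-0.28) on the 1:1 diet, C8b on the 3:1 diet (0.10), and F5 (-0.39) and Mbl2 (0.23) on conventional soybean by over 1.5 times, with no call. Cfd lies near the median signal of the arrays, and the effect of its low signal was not tested.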
